A study of Mus musculus with 8 samples.

Results

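The platelet-derived growth factor (PDGF) receptors and ligands were followed across 8 libraries of mouse embryonic stem cells and of Sca1 cells derived from them. The members were the receptor genes Pdgfra and Pdgfrb and the ligand genes Pdgfa, Pdgfb and Pdgfc. Each was taken from the deposited count table by its RefSeq transcript, with the row of the highest total where a gene had several rows. They make 5 of the 23483 genes in the table, and all 5 passed the filter on low counts that left 13966 genes for testing.

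PDGF ligands are secreted dimers that bring receptor chains together, and the paired receptors then phosphorylate each other and recruit adaptors of the phosphoinositide 3-kinase, phospholipase C gamma, Src and Ras routes. PDGF-A binds the alpha receptor only, PDGF-B binds both receptors, and PDGF-C acts mainly through the alpha receptor after its CUB domain has been cut off. In the embryo the alpha receptor is a known mark of primitive endoderm, paraxial mesoderm and mesenchymal progenitors, and the beta receptor of pericytes, vascular smooth muscle and fibroblasts. PDGF-BB is widely used to drive or modulate smooth muscle cells in culture.

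The cells were of strain C57BL/6 and all were labelled 5.5 mM glucose. Sca1 cells with an shRNA against Set7 (Set7 knock-down) were set against Sca1 cells with a non-target shRNA control (NTC), both made by lentivirus with puromycin selection. Untreated Sca1 cells were set against embryonic stem cells (mESC), the state they came from, and the NTC cells against the untreated Sca1 cells. Each group had 2 libraries of poly(A) RNA. Set7 is the lysine methyltransferase made from Setd7, and the series asks for its part in the path from stem cells to smooth muscle. Per the labels' protocols, stem cells grew with LIF, were differentiated without it for 4 days on gelatin, and were then sorted with anti-Sca1 magnetic beads to a purity above 80%. The protocols also describe a smooth muscle step with 10 ng/ml PDGF-BB for 14 days, but no label says that any of these 8 libraries came from it. The labels name 1 shRNA target against Set7 and are silent on whether replicates came from separate cultures, so a p-value here reflects only how far these samples spread, which may be technical.

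Counts summed over genes lay between 2507938 and 5080266 per library. Setd7 stood at 14.0 and 10.8 CPM, reads scaled to library size in the knock-down libraries, against 60.7 and 66.7 CPM in the NTC libraries. Ly6a, which encodes Sca1, stood at 12.98 and 4.42 CPM in untreated Sca1 cells and 9.84 and 5.72 CPM in mESC, so the transcript of the sorted protein was not called higher in the sorted cells (edgeR adjusted p = 0.671). The second untreated Sca1 library and the second mESC library held 12.0% and 11.5% of their counts in 1 row, NR_046233, which is named only by this accession, against at most 1.62% elsewhere. On raw counts, replicates of these groups differed more than those of the transduced cells, with a chi-square per degree of freedom of 2.09 in the knock-down, 1.54 in NTC, 40.3 in untreated Sca1 cells and 54.9 in mESC. These counts included NR_046233, so the chi-square partly restates the difference in that row. Its value without the row was not computed. Levels below are CPM after TMM scaling, a library-size correction, and fold changes are log2 values with a standard error (SE). The SE is the absolute log2 value over the square root of edgeR's F statistic. It rests on a spread fitted over all 8 libraries and moderated across genes, not on the 2 libraries of a group alone. A gene is called at a Benjamini-Hochberg adjusted p under 0.05 in edgeR's quasi-likelihood test, fitted to all genes and all 8 libraries with 1 mean per group. "Rose" and "fell" are used only of called changes. Bulk libraries cannot tell fewer cells of a type from less RNA per cell.

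The stretch before the annotated start, taken from a RefSeq table, is shown for Pdgfra, Pdgfa and Pdgfc. Pdgfra and Pdgfc moved furthest apart from each other among the members. No window is shown for Pdgfrb, although it fell as far as Pdgfc in the knock-down, and the table held none for Pdgfb. The windows below therefore cover only part of the family. Each run gives the 250 bases before a start, 5′ to 3′ on the gene's strand, in build GRCm38.p6. Capitals mark matches to the motifs searched on both strands, which were the GC box GGGCGG, the TATA box TATAAA, the E box CANNTG, the ETS-type motif GGAAGT and the CArG box. No matches overlapped. Pdgfra lies at chr5:75152001-75152250 on the plus strand, Pdgfc at chr3:81036166-81036415 on the plus strand, and Pdgfa has starts after chr5:138994282-138994531 and chr5:138994945-138995194, both on the minus strand.
Pdgfra: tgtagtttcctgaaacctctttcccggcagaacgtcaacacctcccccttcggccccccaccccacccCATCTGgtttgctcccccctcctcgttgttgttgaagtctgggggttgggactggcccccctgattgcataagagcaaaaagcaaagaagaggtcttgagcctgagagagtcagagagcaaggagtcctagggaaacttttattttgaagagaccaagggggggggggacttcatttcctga
Pdgfc: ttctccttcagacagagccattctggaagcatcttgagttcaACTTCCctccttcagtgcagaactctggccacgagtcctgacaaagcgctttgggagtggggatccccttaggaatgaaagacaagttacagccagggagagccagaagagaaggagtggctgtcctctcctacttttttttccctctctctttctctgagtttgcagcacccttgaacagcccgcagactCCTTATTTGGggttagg
Pdgfa, first window: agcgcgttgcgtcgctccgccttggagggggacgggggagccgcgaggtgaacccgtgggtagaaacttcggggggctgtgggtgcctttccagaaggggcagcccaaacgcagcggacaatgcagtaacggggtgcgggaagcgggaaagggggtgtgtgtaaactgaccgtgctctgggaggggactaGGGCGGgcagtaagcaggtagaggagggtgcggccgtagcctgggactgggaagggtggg
Pdgfa, second window: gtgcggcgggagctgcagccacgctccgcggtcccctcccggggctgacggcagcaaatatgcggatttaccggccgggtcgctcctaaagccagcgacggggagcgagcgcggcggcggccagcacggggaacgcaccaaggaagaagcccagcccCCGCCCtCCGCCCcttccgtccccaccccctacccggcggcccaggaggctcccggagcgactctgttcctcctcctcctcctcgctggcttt
The Pdgfra window held 1 CANNTG, at positions -182 to -177 relative to the start, a motif found in 66.2% of the 32851 windows of this length. The Pdgfc window held a CArG box at -17 to -8, the motif of serum response factor, which 1.47% of all windows hold. It also held GGAAGT on the opposite strand at -208 to -203, found in 19.7% of windows. The Pdgfa windows held GGGCGG, found in 32.7% of windows, once on the gene's strand at -60 to -55 in the first and on the opposite strand at -93 to -88 and -86 to -81 in the second. TATAAA, found in 12.4% of windows, was in none of these 4. Guanine and cytosine made up 54.4% of the Pdgfra window, 50.8% of the Pdgfc window, and 66.4% and 72.4% of the Pdgfa windows, beside a median of 52.4% over all windows. These matches describe letters in a window and were not tested as binding sites.

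The comparison of the Set7 knock-down with NTC asks what a lower level of Set7 changes in Sca1 cells. The 2 groups also differed along chromosome 15, with a median log2 difference of 0.41 there, as given with Pdgfb below. Whether this difference came with the lower Set7 was not tested. Of the 5 members, 4 fell in the knock-down and none rose, where 10.1% of all tested genes fell and 4.25% rose. Pdgfrb and Pdgfc fell furthest, Pdgfra and Pdgfa fell less, and Pdgfb did not pass. Over all genes 594 rose and 1404 fell, and with scaling by library totals alone 259 rose and 1154 fell. The members' median log2 difference was -0.72, beside 0.00 over all tested genes.

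Pdgfra (NM_011058, chromosome 5), the alpha receptor, stood at 101 and 104 CPM in the Set7 knock-down, against 164 and 174 CPM in NTC cells. It stood at 83.8 and 85.3 CPM in untreated Sca1 cells and at 227 and 204 CPM in mESC. Both knock-down libraries lay below both NTC libraries, and both mESC libraries above all 6 others. Pdgfra fell in the knock-down by 0.72 ± 0.12 on the log2 scale against NTC (SE, n = 2 per group, edgeR adjusted p = 0.000321). It fell by 1.35 ± 0.12 in untreated Sca1 cells against mESC (edgeR adjusted p = 1.37e-07). In NTC cells against untreated Sca1 cells it rose by 1.00 ± 0.12 (edgeR adjusted p = 0.000137). The knock-down and the untreated Sca1 cells, its lowest groups, were not called apart (log2 0.28 ± 0.13, edgeR adjusted p = 0.135). Its highest groups, NTC and mESC, differed by -0.35 ± 0.11 (edgeR adjusted p = 0.0226). That last call was lost without NTC replicate 1 (adjusted p = 0.208) or 2 (0.095), without mESC replicate 1 (0.070), and with library totals in place of TMM (0.316).

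Pdgfrb (NM_001146268, chromosome 18), the beta receptor that binds PDGF-BB, had another order of groups. Its level was 12.96 and 12.3 CPM in the knock-down, against 68.3 and 55.95 CPM in NTC cells. In untreated Sca1 cells it was 33.1 and 15.9 CPM, against 8.47 and 5.50 CPM in mESC. NTC libraries lay above all others and mESC libraries below all others, while the second untreated Sca1 library lay nearer to the knock-down than to the first. Pdgfrb fell by 2.30 ± 0.26 in the knock-down against NTC (SE, n = 2 per group, edgeR adjusted p = 7.02e-06). It rose by 1.86 ± 0.31 in untreated Sca1 cells against mESC (edgeR adjusted p = 0.000167), and by 1.19 without untreated replicate 1 (adjusted p = 0.0171). In NTC against untreated Sca1 cells it rose by 1.29 ± 0.24 (edgeR adjusted p = 0.00586). The value against untreated Sca1 cells depended on single libraries, since it was 1.15 without NTC replicate 1 (adjusted p = 0.119), 1.96 without untreated replicate 1 and 0.91 without untreated replicate 2 (adjusted p = 0.0491). The knock-down was not called apart from mESC (0.85 ± 0.33, edgeR adjusted p = 0.0684). Against untreated Sca1 cells the knock-down fell by 1.01 ± 0.29 (edgeR adjusted p = 0.0249), a call lost without untreated replicate 1 (log2 -0.34, adjusted p = 0.531), without knock-down replicate 1 (0.119) or 2 (0.195), and with library totals (0.0729).

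Pdgfc (NM_019971, chromosome 3), the CUB-domain ligand, stood at 7.005 and 7.69 CPM in the knock-down, against 33.8 and 39.2 CPM in NTC cells. Untreated Sca1 cells had 31.5 and 32.3 CPM, against 3.89 and 7.04 CPM in mESC. The libraries fell into a high pair of groups, NTC and untreated Sca1, and a low pair, knock-down and mESC, with no library between 7.69 and 31.5 CPM. Pdgfc fell by 2.30 ± 0.24 in the knock-down against NTC (SE, n = 2 per group, edgeR adjusted p = 2.04e-06) and by 2.10 ± 0.25 against untreated Sca1 cells (edgeR adjusted p = 1.67e-05). It rose by 2.53 ± 0.26 in untreated Sca1 cells against mESC (edgeR adjusted p = 5.76e-07). Within each pair the groups were not called apart, with 0.20 ± 0.20 for NTC against untreated Sca1 cells (edgeR adjusted p = 0.630) and 0.43 for the knock-down against mESC (edgeR adjusted p = 0.337). Every called Pdgfc change was kept in each of the 8 leave-outs.

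Pdgfa (NM_008808, chromosome 5), the ligand of the alpha receptor, moved over a narrower range. It stood at 59.5 and 57.8 CPM in the knock-down, against 89.3 and 79.6 CPM in NTC cells. Untreated Sca1 cells had 61.5 and 47.7 CPM, and mESC had 62.5 and 79.7 CPM. The NTC libraries and the knock-down libraries did not overlap, and the mESC libraries spanned nearly all of the gap between them. Pdgfa fell by 0.53 ± 0.16 in the knock-down against NTC (SE, n = 2 per group, edgeR adjusted p = 0.0290). This call was lost when any of those 4 libraries was left out (adjusted p between 0.0931 and 0.279), with DESeq2 (0.0901) and with library totals (0.0721). It rose by 0.61 ± 0.16 in NTC against untreated Sca1 cells (edgeR adjusted p = 0.0333), a call lost without either knock-down library (0.0845 and 0.0850), without NTC replicate 1 (0.336) or 2 (0.141), and without untreated replicate 2 (0.211). Untreated Sca1 cells and mESC were not called apart (-0.37 ± 0.16, edgeR adjusted p = 0.0864), although the call was made without untreated replicate 1 (-0.57, adjusted p = 0.0434) or mESC replicate 1 (-0.52, adjusted p = 0.0114). Ordered by mean level the groups ran NTC, mESC, knock-down and untreated Sca1, and no neighbours in that order were called apart.

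Pdgfb (NM_011057, chromosome 15) encodes the chain of PDGF-BB and was the least read member, with 14 and 23 counts in the knock-down libraries, against 27 and 26 in the NTC libraries. The untreated Sca1 libraries had 18 and 14 counts, against 13 and 21 in mESC. Scaled levels were 4.90 and 5.06 CPM in the knock-down, 6.38 and 5.79 CPM in NTC, 5.56 and 6.18 CPM in untreated Sca1 cells, and 2.98 and 4.62 CPM in mESC. The knock-down libraries lay below both NTC libraries and the mESC libraries below all others, but no difference was called in any of the 6 contrasts. Without both libraries rich in NR_046233, Pdgfb was called higher in NTC than in mESC (1.03, edgeR adjusted p = 0.0411), against 0.67 with all libraries (0.146). The log2 difference was -0.28 ± 0.34 for the knock-down against NTC (edgeR adjusted p = 0.659), 0.61 ± 0.38 for untreated Sca1 cells against mESC (edgeR adjusted p = 0.226) and 0.06 ± 0.35 for NTC against untreated Sca1 cells (edgeR adjusted p = 0.949). On chromosome 15, where Pdgfb lies, the median log2 difference of the knock-down against NTC was 0.41 over 424 genes above a floor on mean CPM. It was 0.02 over all genes above that floor. The chromosome's median was 0.36 in the knock-down against untreated Sca1 cells and 0.48 against mESC, and between -0.05 and 0.08 in the contrasts without the knock-down. The part of this shift in the value of Pdgfb, or of Scube1, named below and on the same chromosome, was not tested.

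**Figure D1:**
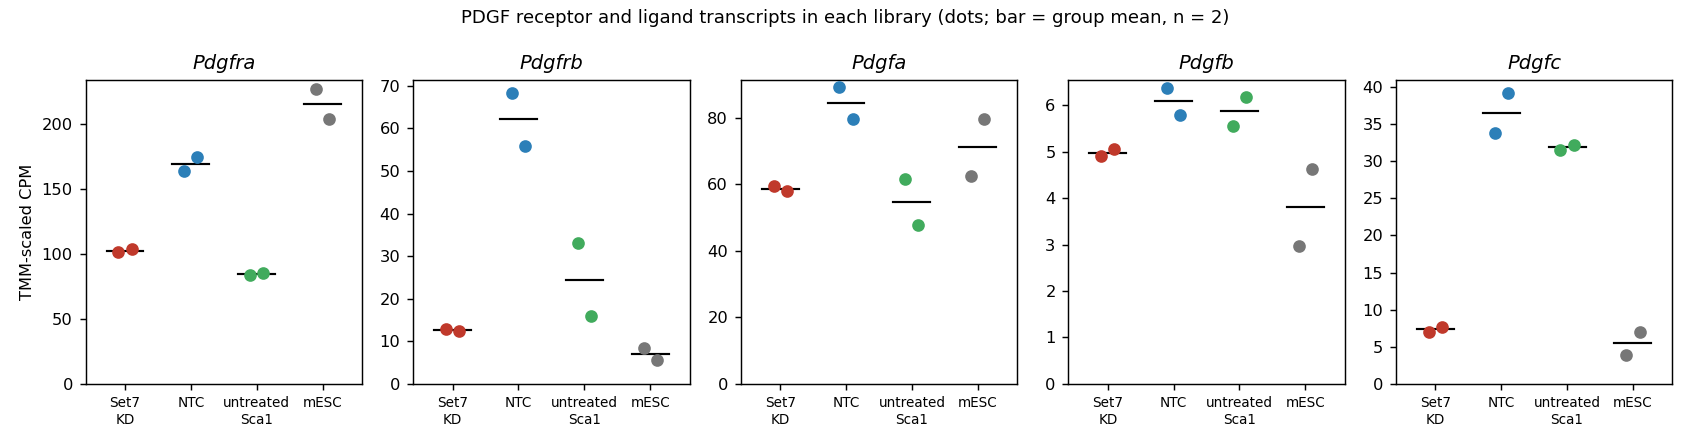
Each panel plots the TMM-scaled CPM of 1 gene, with the libraries as dots, 2 per group, and a bar at the group mean. Pdgfc has 2 high groups (NTC and untreated Sca1) and 2 low ones, Pdgfrb peaks in NTC at 68.3 and 55.95 CPM, and Pdgfra peaks in mESC at 227 and 204 CPM.

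Across the first differentiation step, untreated Sca1 cells against mESC, 2 members rose and 1 fell, where 18.7% of all tested genes rose and 16.8% fell. Pdgfrb and Pdgfc rose and Pdgfra fell, so the receptors moved in opposite directions. In the knock-down against NTC, which shares no library with it, both receptors fell. Pdgfrb and Pdgfc thus had opposite signs in these comparisons, and Pdgfra had the same sign. In NTC against untreated Sca1 cells 3 members rose and none fell, where 3.88% of tested genes rose and 1.11% fell (542 and 155 genes, or 493 and 18 with library totals). This comparison shares its libraries with the other 2. The calls in it were those of both receptors and Pdgfa, and leaving out NTC replicate 1 left only 1, that of Pdgfra. Without both libraries rich in NR_046233, which leaves 1 untreated Sca1 and 1 mESC library with their spread taken from the other groups, Pdgfra (-1.43), Pdgfrb (1.98) and Pdgfc (3.02) kept their calls against mESC. Pdgfra (1.01), Pdgfrb (0.90) and Pdgfa (0.45) kept theirs in NTC against untreated Sca1 cells.

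Of the remaining contrasts, the knock-down against untreated Sca1 cells had 2 lower members, Pdgfrb and Pdgfc, where 9.89% of tested genes fell and 7.34% rose. NTC against mESC had 2 higher members, Pdgfrb (3.15 ± 0.28, edgeR adjusted p = 1.08e-07) and Pdgfc (2.73 ± 0.24, edgeR adjusted p = 1.01e-07), where 19.6% of tested genes rose. Pdgfra was its 1 lower member, where 15.5% fell. The knock-down against mESC had 1 lower member, Pdgfra, which fell by 1.07 ± 0.12 (edgeR adjusted p = 2.80e-06), where 12.4% of tested genes fell and 13.5% rose. In that contrast Pdgfa (-0.28), Pdgfb (0.39), Pdgfc (0.43) and Pdgfrb (0.85) did not pass. These contrasts share libraries with those above.

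**Figure D2:**
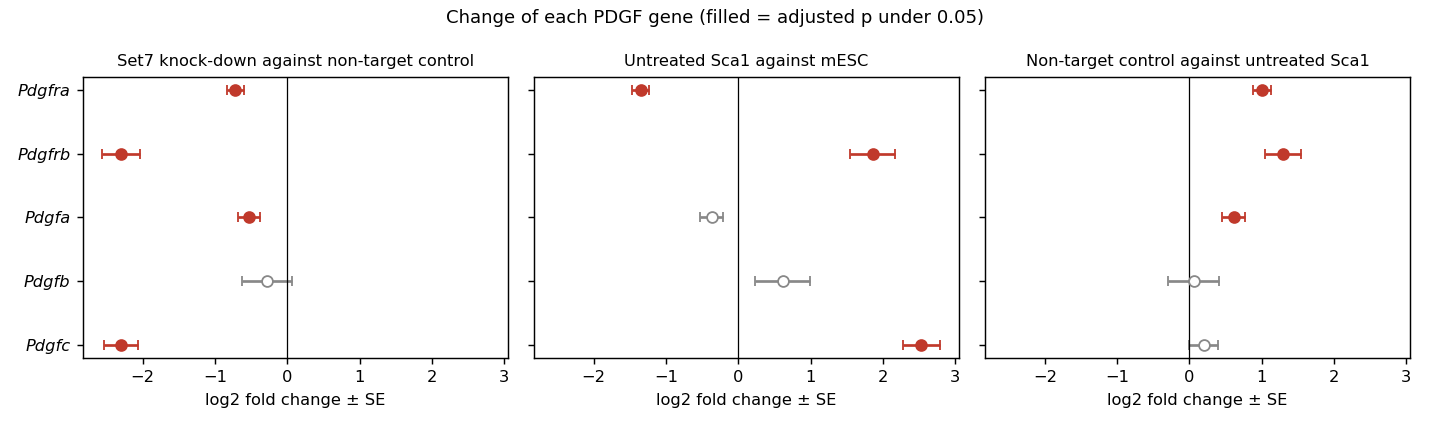
Log2 fold change with SE (horizontal axis) of each gene in 3 comparisons, filled where the adjusted p is under 0.05. Pdgfrb and Pdgfc lie at -2.30 in the knock-down against NTC and at 1.86 and 2.53 in untreated Sca1 cells against mESC, while Pdgfra is below 0 in both.

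The sample descriptions carry a code of 12, 34 or 56, which the labels do not explain, and each could mark a batch. Knock-down and NTC replicates carry 12 and 34, and untreated Sca1 and mESC replicates carry 34 and 56. Both libraries of code 56 are the ones rich in NR_046233. Within code 12 the knock-down differed from NTC by -0.70 for Pdgfra, -2.35 for Pdgfrb, -0.58 for Pdgfa, -0.35 for Pdgfb and -2.19 for Pdgfc. Within code 34 the same differences were -0.74, -2.14, -0.46, -0.18 and -2.27 in that order of genes, so each kept its sign in both. For untreated Sca1 cells against mESC, Pdgfra differed by -1.43 and -1.25, Pdgfrb by 1.90 and 1.45, and Pdgfc by 2.86 and 2.12 within codes 34 and 56. Pdgfa differed by -0.02 and -0.73 and Pdgfb by 0.80 and 0.38 in the same codes. NTC and untreated Sca1 cells share only code 34, within which Pdgfra differed by 1.06, Pdgfrb by 0.75, Pdgfa by 0.37, Pdgfb by 0.05 and Pdgfc by 0.31. These are differences of log2 CPM with 1 library a side and no test.

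Levels of different genes were compared as CPM per kilobase of the counted transcript. On that scale Pdgfa was the most abundant ligand in every library, at 28.9 and 28.1 in the knock-down, 43.4 and 38.6 in NTC, 29.9 and 23.2 in untreated Sca1 cells, and 30.3 and 38.7 in mESC. Pdgfc had 1.99 and 2.19 in the knock-down, 9.60 and 11.1 in NTC, 8.95 and 9.16 in untreated Sca1 cells, and 1.10 and 2.00 in mESC. Pdgfb stayed between 1.01 and 2.17 in all 8 libraries. Of the summed ligand reads per kilobase, Pdgfc made up 6.11% and 6.84% in the knock-down, against 17.4% and 21.5% in NTC. Its share was 22.0% and 26.6% in untreated Sca1 cells, against 3.41% and 4.74% in mESC. The knock-down libraries thus had a Pdgfc share nearer to that of mESC than to that of the other Sca1 libraries.

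Between the receptors, reads per kilobase of Pdgfra over Pdgfrb gave a ratio of 6.45 (95% counting interval 4.57 to 9.34) and 6.97 (5.28 to 9.37) in the knock-down. The ratio was 1.99 (1.73 to 2.29) and 2.58 (2.23 to 2.98) in NTC, and 2.09 (1.67 to 2.64) and 4.43 (3.09 to 6.51) in untreated Sca1 cells. It was 22.1 (15.95 to 31.6) and 30.6 (20.6 to 47.6) in mESC. Pdgfra therefore outnumbered Pdgfrb in every library, by the widest margin in mESC, and the ratio was higher in both knock-down libraries than in any NTC or untreated Sca1 library. With 2 libraries against 2, the smallest two-sided p of an exact permutation test is 0.333, so no difference in these ratios or shares could pass, and the intervals cover counting error only.

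**Figure D3:**
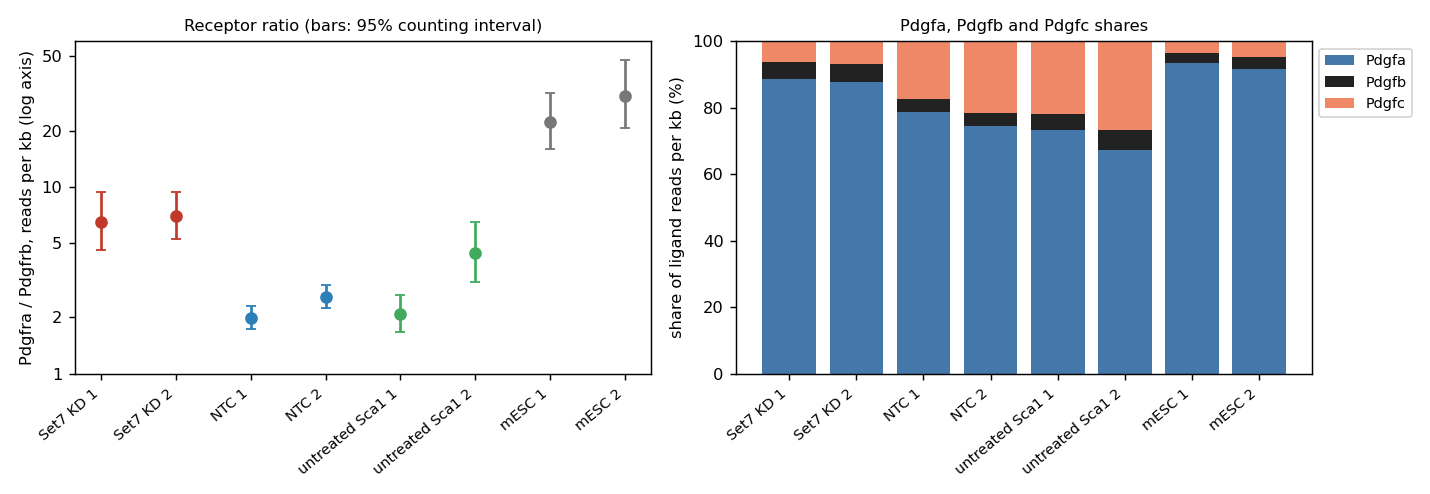
Left, Pdgfra over Pdgfrb in reads per kilobase on a log axis, 1 point per library with its 95% counting interval. Right, the percentage of ligand reads per kilobase from Pdgfa, Pdgfb and Pdgfc in each library. The ratio is 22.1 and 30.6 in mESC and 6.45 and 6.97 in the knock-down, and the Pdgfc share is 17.4% to 26.6% in the NTC and untreated Sca1 libraries and 3.41% to 6.84% in the other 4.

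Pdgfd and Pdgfrl complete the family in the table. Pdgfd, the ligand of the beta receptor, had 3 and 1 counts in the knock-down, 9 and 8 in NTC, 0 and 2 in untreated Sca1 cells, and 1 and 2 in mESC, and did not pass the filter. Pdgfrl, a receptor-like gene with no kinase domain, stood at 10.2 and 8.79 CPM in the knock-down, against 9.69 and 13.6 CPM in NTC. It stood at 13.6 and 21.2 CPM in untreated Sca1 cells, against 8.01 and 11.2 CPM in mESC. It was called only in untreated Sca1 cells against mESC (0.82 ± 0.29, edgeR adjusted p = 0.0359), and lost that call without either knock-down library (adjusted p = 0.0561 and 0.0566), untreated replicate 2 (0.280) or mESC replicate 1 (0.140), with DESeq2 (0.124) and in a fit of those 2 groups alone (0.0711).

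Marker lists of other cell types were read beside the members, and not every list had a member's order of groups. Over all tested genes, 4.25% rose and 10.1% fell in the knock-down against NTC. In untreated Sca1 cells against mESC 18.7% rose and 16.8% fell, and in NTC against untreated Sca1 cells 3.88% rose and 1.11% fell. The summed level of 13 fibroblast and mesenchyme markers was 92.5 and 80.0 CPM in the knock-down, against 1906 and 1842 CPM in NTC. It was 817 and 895 CPM in untreated Sca1 cells, against 25.2 and 19.4 CPM in mESC. This is the order of mean levels seen for Pdgfrb. Of 11 such markers tested, 9 fell and none rose in the knock-down, 10 rose in untreated Sca1 cells against mESC, and 3 rose in NTC against untreated Sca1 cells. Postn and Fap had no read in the knock-down, and Postn, Dcn, Lum, Prrx1 and Fap had none in mESC.

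Pericyte markers, of which Pdgfrb is a usual companion, summed to 174 and 173 CPM in the knock-down, against 354 and 343 CPM in NTC. They summed to 243 and 278 CPM in untreated Sca1 cells, against 272 and 284 CPM in mESC. The mESC sum was mostly Mcam and Notch3, with means of 160 and 78.7 CPM there, against 39.0 and 146 CPM in untreated Sca1 cells. Similar sums thus covered genes that moved in opposite directions. The defining markers Rgs5 and Higd1b had no read in either the knock-down or mESC, Kcnj8 had none in untreated Sca1 cells or mESC, and Abcc9 had none in mESC. Vtn went the other way, with no read in the knock-down, NTC or untreated Sca1 cells and a mean of 0.11 CPM in mESC. None of these genes passed the filter. In untreated Sca1 cells Rgs5, Higd1b and Abcc9 had means of only 0.77, 0.44 and 0.22 CPM, so these absences rest on few reads. Smooth muscle markers summed to 550 and 575 CPM in the knock-down, 1528 and 1568 CPM in NTC, 2127 and 1649 CPM in untreated Sca1 cells, and 174 and 158 CPM in mESC. In the knock-down 4 of 5 tested pericyte markers and 7 of 10 smooth muscle markers fell against NTC. Untreated Sca1 cells had 9 of the smooth muscle markers higher than mESC, 3 pericyte markers higher and 2 lower. Primitive endoderm markers, the textbook setting of Pdgfra in stem cell cultures, summed to 2168 and 2160 CPM in the knock-down, against 3142 and 3037 CPM in NTC. They summed to 1706 and 1934 CPM in untreated Sca1 cells, against 4178 and 4102 CPM in mESC, the order of mean levels seen for Pdgfra. The sum was mostly Lama1, Col4a1 and Cubn, with means of 1725, 1478 and 498 CPM in mESC. Of 11 tested, 3 fell and 1 rose in the knock-down against NTC, 7 fell in untreated Sca1 cells against mESC, and 4 rose in NTC against untreated Sca1 cells. In the knock-down against untreated Sca1 cells 2 rose, 1 fell and 8 were not called. There the mean was 379 against 101 CPM for Cubn and 23.9 against 44.7 CPM for Gata4, so single genes did not all follow the sum.

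Pluripotency markers summed to between 2442 and 4351 CPM in all 8 libraries, highest in mESC. Their calls were 3 of 10 higher in the knock-down against NTC and 7 of 10 lower in untreated Sca1 cells against mESC. Endothelial markers summed to 179 and 199 CPM in the knock-down, 277 and 266 CPM in NTC, 139 and 144 CPM in untreated Sca1 cells, and 248 and 250 CPM in mESC. Flt1 was the 1 of 8 tested that fell in the knock-down against NTC, by 2.91 ± 0.19, and the other 7 were not called. The drop of Flt1 alone was larger than that of the sum, and the list's median log2 difference was 0.095. Mesoderm markers summed to 145 and 146 CPM in the knock-down, 154 and 146 CPM in NTC, 168 and 220 CPM in untreated Sca1 cells, and 83.6 and 81.9 CPM in mESC. Of single genes, 4 of the 9 tested mesoderm markers fell in the knock-down and none rose. They were Msgn1, Hand1, Foxc1 and Meox1, and Foxc1 had 3 and 4 reads in the knock-down libraries, against 34 and 30 in the NTC libraries. In untreated Sca1 cells 7 of the 9 rose against mESC and none fell. A further 10 blood markers summed to at most 10.2 CPM in any library. The part of these other cell types in the PDGF values was not tested.

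**Figure D4:**
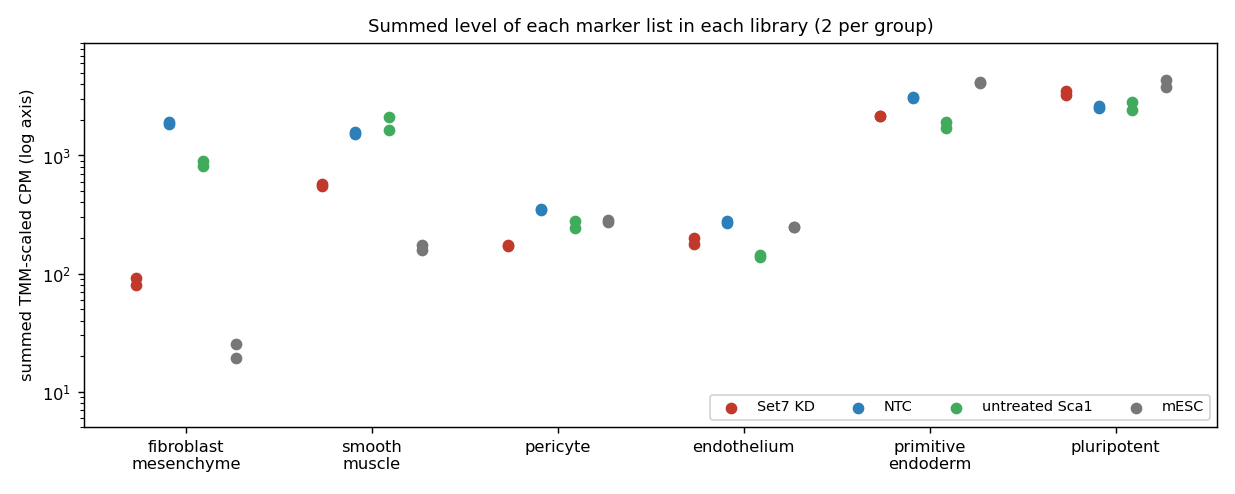
Summed TMM-scaled CPM of 6 marker lists on a log axis, 2 dots per group for the 2 libraries. The fibroblast and mesenchyme sum spans 19.4 to 1906 CPM and has its highest values in NTC, and the primitive endoderm sum is highest in mESC, at 4178 and 4102 CPM.

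The genes whose pattern over the 8 libraries lay closest to each member were found by the root mean square difference of log2 CPM centred on the gene's mean, among 8985 genes. For Pdgfra these were Cox6b2, a testis-type cytochrome c oxidase subunit (0.14), the ubiquitin ligase gene Trim11 (0.16) and the laminin gamma chain gene Lamc1 (0.17). Lamc1 had 798 and 807 CPM in the knock-down, 1329 and 1300 CPM in NTC, 786 and 889 CPM in untreated Sca1 cells, and 1942 and 2089 CPM in mESC. For Pdgfrb they were the semaphorin gene Sema3b (0.28), Scube1 (0.30) and Aebp1 (0.35), which encodes a secreted collagen-binding protein. For Pdgfc they were the actin-binding drebrin gene Dbn1 (0.18), Tmem92 (0.22) and the hyaluronan receptor gene Cd44 (0.23). Dbn1 had 31.9 and 30.1 CPM in the knock-down, 113 and 110 CPM in NTC, 99.8 and 111 CPM in untreated Sca1 cells, and 15.6 and 22.4 CPM in mESC, the same high and low pairs of groups as Pdgfc.

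Pdgfa was closest to Nfat5 (0.07), Atp6ap1 (0.11) and Pced1a (0.11), and Pdgfb to Spata13 (0.10), Dhx34 (0.11) and Slc2a1 (0.11). Both members vary little over the libraries, and only 1 of the 3 genes for Pdgfb was kept with a prior count of 0.5. Among the members themselves the closest pairs were Pdgfa with Pdgfb (0.38), Pdgfa with Pdgfra (0.40) and Pdgfc with Pdgfrb (0.67), and the farthest was Pdgfc with Pdgfra (1.49). Kit, the stem cell factor receptor gene and the next coding gene to Pdgfra on chromosome 5, ranked 15 by closeness to Pdgfra (0.23). Kit stood at 118 and 130 CPM in the knock-down, 151 and 154 CPM in NTC, 110 and 87.9 CPM in untreated Sca1 cells, and 248 and 288 CPM in mESC.

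Calls in the pathway lists below stand beside the shares over all tested genes. In the knock-down against NTC 10.1% of these fell and 4.25% rose. In untreated Sca1 cells against mESC 18.7% rose and 16.8% fell, and in NTC against untreated Sca1 cells 3.88% rose and 1.11% fell. Of 7 genes that cut or activate PDGF ligands, 4 fell and none rose in the knock-down against NTC, with a median of -0.98. They were Plat, which encodes the tissue plasminogen activator that activates PDGF-C (-2.29 ± 0.24), Plau, the urokinase gene (-2.52), and the convertase genes Furin (-0.98 ± 0.14) and Pcsk5 (-1.61). Plat stood at 9.46 and 10.1 CPM in the knock-down, 47.3 and 48.8 CPM in NTC, 36.8 and 26.1 CPM in untreated Sca1 cells, and 8.24 and 4.40 CPM in mESC. Its libraries thus fell into the same high and low groups as those of Pdgfc. In untreated Sca1 cells against mESC, Plat (2.33 ± 0.27), Plau (3.301 ± 0.43) and Pcsk5 rose and Pcsk6 (-0.95 ± 0.15) fell, with a list median of 0.16. Pcsk6 (0.66 ± 0.15) and Furin (0.60 ± 0.14) rose in NTC against untreated Sca1 cells. Both lost their call without any of the knock-down or NTC libraries (adjusted p between 0.0541 and 0.246), Pcsk6 also without untreated replicate 1 (0.155) and Furin without untreated replicate 2 (0.125). The 4 knock-down calls were kept in all 8.

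Among 10 co-receptors and matrix proteins that bind PDGFs or their receptors, 7 fell and none rose in the knock-down, with a median of -1.53. The thrombospondin gene Thbs1 fell by 2.74 ± 0.14 (edgeR adjusted p = 2.96e-10), and Lrp1, a co-receptor of the beta receptor, fell by 2.73 ± 0.16 (edgeR adjusted p = 2.02e-09). Lrp1 stood at 44.5 and 38.0 CPM in the knock-down, 297 and 246 CPM in NTC, 114 and 138 CPM in untreated Sca1 cells, and 64.3 and 83.9 CPM in mESC. The other 5 were the neuropilin genes Nrp1 and Nrp2 and the integrin genes Itgb1, Itgav and Itgb5, the last lost without knock-down replicate 2 (adjusted p = 0.0583). Against mESC, untreated Sca1 cells had 5 that rose, led by Thbs1 (5.93 ± 0.22) and Nrp1 (3.17 ± 0.28), and A2m (-2.80 ± 0.44) and Sparc (-0.59 ± 0.15) fell, with a median of 0.42. The Sparc call was lost without untreated replicate 2 (edgeR adjusted p = 0.0845). Of the 10, 6 rose and none fell in NTC against untreated Sca1 cells, with a median of 0.71, led by Nrp2 (1.17 ± 0.12) and Lrp1 (1.11 ± 0.15). The number of calls there lay between 2 and 7 over the 8 leave-outs.

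Of 34 adaptors and kinases inside the cell, 3 (8.82%) fell and none rose in the knock-down, with a median of -0.08, a share near the 10.1% of all tested genes that fell. They were the kinase gene Akt1 (-0.56 ± 0.15), the phospholipase gene Plcg1 (-0.43 ± 0.12) and Stat3. Akt1 (adjusted p between 0.0671 and 0.220) and Plcg1 (0.078 to 0.268) lost their call without any 1 of the knock-down or NTC libraries, and Stat3 without knock-down replicate 2 (0.231), either NTC library (0.142 and 0.0915) or either mESC library (0.122 and 0.114). Against mESC, 10 of the 34 rose in untreated Sca1 cells, such as the adaptor gene Gab2 (3.72 ± 0.52) and Akt1 (0.96 ± 0.16), and 4 fell, such as the Src family kinase gene Yes1 (-1.71 ± 0.16) and Stat3 (-1.14 ± 0.20), with a median of 0.07. These calls made up 41.2% of the list, near the share of all tested genes, of which 18.7% rose and 16.8% fell. None of the 34 was called by edgeR in NTC against untreated Sca1 cells, and between 0 and 2 were over the leave-outs.

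Of 17 feedback and turnover genes tested in a list of 18, 11.8% were called in the knock-down against NTC, with a median of -0.08. That share was near the one of all tested genes, of which 4.25% rose and 10.1% fell. Ptpn2, a phosphatase gene of the beta receptor, rose (0.51 ± 0.14) and the signal inhibitor gene Spry1 fell (-0.83 ± 0.19). Ptpn2 lost its call without any 1 of the knock-down or NTC libraries (adjusted p between 0.101 and 0.266), and Spry1 without either knock-down library (0.0836 and 0.0756) or NTC replicate 2 (0.133). Against mESC, 5 rose in untreated Sca1 cells, including the MAP kinase phosphatase genes Dusp4 (1.96 ± 0.19) and Dusp6 (0.95 ± 0.14). Another 3 fell, including Spry4 (-1.55 ± 0.14) and Socs3 (-2.31 ± 0.23), so the median was 0.00. The calls made up 47.1% of the list, where 18.7% of all tested genes rose and 16.8% fell. None was called in NTC against untreated Sca1 cells by edgeR, where between 0 and 2 were over the leave-outs and the median was -0.22.

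Of 17 response genes tested in a list of 22, 4 fell and none rose in the knock-down, with a median of -0.38. The matricellular gene Ccn1 fell by 1.43 ± 0.13 and the AP-1 factor gene Jun by 1.47 ± 0.24, and Fosl2 and Has2 were the others. Fosl2 lost its call without knock-down replicate 2 (adjusted p = 0.0673) and Has2 without any 1 of the knock-down or NTC libraries (0.062 to 0.315). Ccn1 stood at 55.7 and 52.8 CPM in the knock-down, 144 and 147 CPM in NTC, 90.6 and 89.7 CPM in untreated Sca1 cells, and 22.4 and 24.7 CPM in mESC. In untreated Sca1 cells against mESC 11 rose and 2, Klf5 and Klf4 (-1.496), fell, with a median of 1.17. Ccn1 rose by 1.94 ± 0.14, and the hyaluronan synthase gene Has2 stood at 17.3 and 28.7 CPM in untreated Sca1 cells, against 1 read in each mESC library. Only Ccn1 was called in NTC against untreated Sca1 cells (0.69 ± 0.12), and it lost that call without either NTC library (adjusted p = 0.0858 and 0.0866). Over all tested genes the medians of the 3 comparisons were 0.00, -0.01 and 0.01 in the order given here. Against untreated Sca1 cells, 5 co-receptor genes fell and 1 rose in the knock-down (median -0.69), as 3 and 1 ligand-processing genes did (-0.38). There 9 adaptors fell and 1 rose (-0.22), 3 feedback genes fell and none rose (-0.115), and 8 response genes fell and 1 rose (-0.68). Over all tested genes 9.89% fell and 7.34% rose in that contrast.

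**Figure D5:**
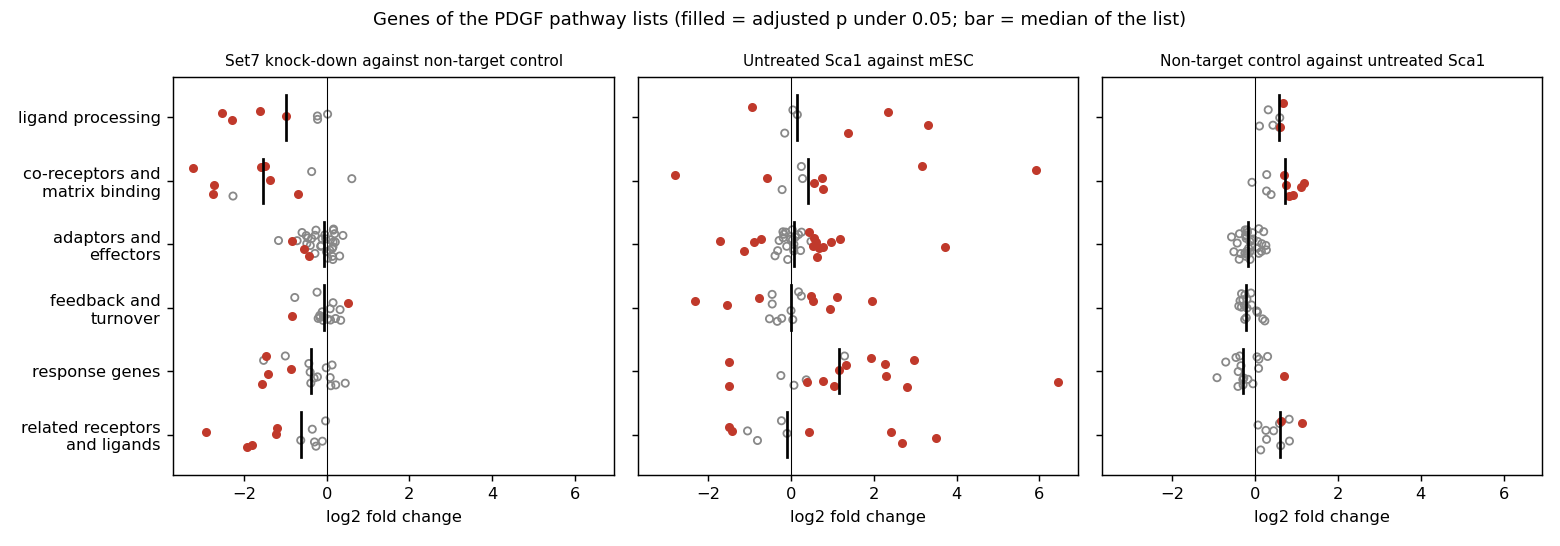
Log2 fold change (horizontal axis) of every tested gene of 6 PDGF pathway lists in 3 comparisons, filled where the adjusted p is under 0.05, with a bar at the list's median. Csf1 is not drawn in the untreated Sca1 against mESC panel because it had no read in mESC, but counts in the median. In the knock-down against NTC the co-receptor list has its median at -1.53 and the adaptor list at -0.08.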

How the data were processed

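Poly(A) RNA of 8 mouse libraries in 4 groups was sequenced on a Genome Analyzer IIx, per the labels' protocols. The authors deposited whole-number read counts per RefSeq transcript, which judged from the values carry no scaling. BWA 0.5.9, SAMtools 0.1.17 and edgeR 0.19 appear in the submitters' processing notes without a role. What build, counting rule and strand were used is not given in the sources used here.

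Names came from a RefSeq gene table (GRCm38.p6) for 28985 of 29614 rows and from GENCODE vM21 for 173, and 456 kept their accession. For each gene the row with the highest total was used. The 2 Pdgfrb rows are identical, and those of Pdgfra nearly so. With 1 row per gene, library totals ranged from 2507938 to 5080266 counts. Over all deposited rows they ranged from 3354828 to 6788049.

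Low counts were removed with filterByExpr, and TMM-scaled libraries were tested with edgeR 4.0.16 (R 4.3.3, robust quasi-likelihood, 1 mean per group over all 8 libraries, residual degrees of freedom 4, common dispersion 0.0133), adjusted by Benjamini-Hochberg over 13966 genes and called at 0.05. The code was tested on simulated data. CPM per kilobase used the length of the GENCODE transcript matched to the counted row.

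Members and lists (ligand processing, co-receptors and matrix binding, adaptors and effectors, feedback and turnover, response genes, related receptors and ligands, and the cell type markers) were chosen with earlier results of these data known. Named genes were the members, Pdgfd, Pdgfrl, Setd7, Ly6a, up to 2 called genes per direction, list and comparison with the smallest p, and the 3 genes most like each member, among genes of at least 20 CPM in their highest group. Kit, Plau in the knock-down, Pcsk5, Stat3 in the knock-down, Nrp1, Nrp2, Itgb1, Itgav, Itgb5, Fosl2, Has2 in the knock-down, Kitl, Vegfc in the knock-down, Pgf, Msgn1, Hand1 and markers without reads were named after their values were seen. Alternatives were RLE size factors, library totals, no filter, a filter at 5 CPM in 2 libraries, the replicate block, sums of a gene's rows, the compared groups alone, DESeq2 1.42.0, each library left out, the longest transcript and a prior count of 0.5 in place of 2. Leaving out both libraries rich in NR_046233, and library totals without that row, were added after the data were seen.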

Additional observations from a re-analysis of the deposited data

How the results depend on the processing

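Apart from single libraries left out, the 5 members kept direction and call in 48 of 50 values for the knock-down against NTC, in all 50 for untreated Sca1 cells against mESC and in 49 of 50 for NTC against untreated Sca1 cells. The exceptions in the first were Pdgfa with library totals (log2 -0.54) and with DESeq2 (-0.52), and in the third Pdgfa with the sum of all rows (0.62, adjusted p = 0.0553). In the other 3 contrasts library totals ended the calls of Pdgfrb in the knock-down against untreated Sca1 cells (-0.94, leaving 1 called member of 2) and of Pdgfra in NTC against mESC (-0.23). Pdgfrb in the knock-down against mESC was called with no filter (0.86) and with the 2 groups alone (0.86), which made 2 called members for 1. Without both libraries rich in NR_046233, Pdgfa (0.44) and Pdgfb (1.03) were called in NTC against mESC, making 5 called members for 3, and Pdgfa in the knock-down against untreated Sca1 cells turned to -0.082. The causes were not tested. Library totals shifted the median of all genes to 0.10 in NTC against untreated Sca1 cells and 0.12 in NTC against mESC. With them 70.7% of calls in NTC against mESC and 64.0% in the knock-down against mESC were higher, against 55.9% and 52.1% with TMM.

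With 1 library left out at a time, Pdgfa ranged from -0.61 to -0.44 in the knock-down against NTC, from -0.57 to -0.17 in untreated Sca1 cells against mESC, from 0.45 to 0.83 in NTC against untreated Sca1 cells, from -0.071 to 0.30 in the knock-down against untreated Sca1 cells, from 0.083 to 0.43 in NTC against mESC and from -0.44 to -0.094 in the knock-down against mESC. Pdgfrb ranged from 0.91 to 1.96 in NTC against untreated Sca1 cells, from -1.39 to -0.34 in the knock-down against untreated Sca1 cells and from 0.57 to 1.19 in the knock-down against mESC. Pdgfra ranged from -0.42 to -0.27 in NTC against mESC. Pdgfb in NTC against untreated Sca1 cells ranged from -0.021 without untreated replicate 1 to 0.13, and was -0.011 without NTC replicate 1. Called members numbered 1 to 3 in NTC against untreated Sca1 cells, 1 to 2 in the knock-down against untreated Sca1 cells and 1 to 2 in the knock-down against mESC. Ly6a, not called in any of these, ranged from -0.81 without untreated replicate 1 to 0.75 in untreated Sca1 cells against mESC, was -0.084 without mESC replicate 2 and was 0.24 with all libraries. In NTC against untreated Sca1 cells it ranged from -1.12 to 0.43, the last without untreated replicate 1, and was -0.62 with all libraries.

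The count of called genes depended more on the setting. For the knock-down against NTC it was 1998, and 4416 with the 2 groups alone, 1225 with DESeq2, 4462 without the libraries rich in NR_046233 and 648 to 2826 over the leave-outs. For NTC against untreated Sca1 cells it was 697, and 1148 with no filter, 1261 with the replicate block, 2386 without those libraries and 57 to 1517 over the leave-outs. The knock-down against untreated Sca1 cells gave 2406, and 1456 with DESeq2 and 796 to 3292 over the leave-outs. The knock-down against mESC gave 3615, and 2405 with DESeq2 and 1844 to 4271 over the leave-outs, and NTC against mESC gave 4898, and 2906 to 5267. Same-numbered libraries of the knock-down and NTC, and of untreated Sca1 cells and mESC, carry the same description code. Their deviations correlated by 0.05 and 0.27, each from 2 pairs only, so whether a code marks a shared batch was not settled. With the replicate block Pdgfrb in NTC against untreated Sca1 cells was 0.84, and no call of a member changed. Pdgfb had 13 to 27 counts per library, and Pdgfd 0 to 9.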

Other observations

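Receptors and ligands related to the PDGF family were read beside it. Of 11 tested in a list of 14, 5 fell and none rose in the Set7 knock-down against NTC, with a median log2 difference of -0.63. Over all tested genes 10.1% fell and 4.25% rose there. Flt1, the receptor of VEGF-A and placental growth factor, stood at 15.4 and 18.02 CPM in the knock-down, 134 and 121 CPM in NTC, 48.5 and 68.5 CPM in untreated Sca1 cells, and 10.5 and 7.48 CPM in mESC. It fell by 2.91 ± 0.19 in the knock-down against NTC (SE, n = 2 per group, edgeR adjusted p = 8.35e-09). It rose by 2.68 ± 0.22 in untreated Sca1 cells against mESC and by 1.14 ± 0.17 in NTC against untreated Sca1 cells, so its groups had the order of those of Pdgfrb. Csf1, the macrophage growth factor gene, fell by 1.92 ± 0.24 in the knock-down (edgeR adjusted p = 3.10e-05) and had no read in either mESC library, against 22.9 and 23.0 CPM in untreated Sca1 cells. The ligand genes Kitl, Vegfc and Pgf were the other 3 that fell, and each lost its call without knock-down replicate 2 (adjusted p = 0.108, 0.112 and 0.199) and NTC replicate 2 (0.0836, 0.0769 and 0.0573), Kitl and Vegfc also without knock-down replicate 1 (0.0568 and 0.0707) and Pgf without NTC replicate 1 (0.0615).

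In untreated Sca1 cells against mESC 5 of these genes rose and 2 fell, where 18.7% of all tested genes rose and 16.8% fell. The list's median was -0.09, which Csf1 leaves unchanged at any value above 0. The 2 that fell were Kit (-1.43 ± 0.13) and the VEGF receptor ligand gene Vegfc (-1.49 ± 0.25), so Kit fell in the same comparison as its chromosomal neighbour Pdgfra. Kit was not called in the knock-down against NTC (-0.29 ± 0.13, edgeR adjusted p = 0.157). In NTC against untreated Sca1 cells Kit (0.61 ± 0.14) and Flt1 rose and none fell, with a median of 0.59, where 3.88% of all tested genes rose and 1.11% fell. Kit lost its call without either NTC library (adjusted p = 0.149 and 0.144) or untreated replicate 2 (0.113).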
